A study of Homo sapiens with 4 samples.

Results

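The transcriptomes of decitabine-treated CAL27 cells and decitabine-treated cells labelled SCC15 were set against each other, by the reads per gene in the 2 treated libraries of the 4 in the series. CAL27 is an established line from a squamous carcinoma of the tongue, and SCC15 is catalogued as another such line. The treated cells had been exposed to 10 µM decitabine (5-aza-2'-deoxycytidine) for 48 h, and CAL27 and SCC15-labelled cells given DMSO, the solvent, form the second pair of libraries. Both lines were grown in the same medium, and polyadenylated RNA was sequenced from 1 library for each combination of line and treatment. With 1 library a group, no difference has a replicate check and none was tested: fold changes, counts and counting intervals describe these libraries. The question addressed is which line differences exist under the drug, and which genes are off (0 to 3 reads) in one treated line and on in the other. Of 51103 genes in the table, 1498 met that description.

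Decitabine is a cytidine analogue that enters newly made DNA and holds DNA methyltransferases there; methylation at CpG sites is then lost over cell divisions, and some silenced genes can be transcribed again. Squamous epithelial cells are held together by desmosomes and cadherin junctions, are built on basal keratins such as KRT5, and are kept in their lineage by transcription factors that include TP63, GRHL2 and EHF. Neuroendocrine cells store peptides in dense-core granules packed with chromogranins and secretogranins and release them through a SNARE and complexin machinery shared with neurons.

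The treated libraries held 14714809 reads for CAL27 and 17583706 for SCC15-labelled cells, and the DMSO libraries held 14524461 and 14830807. Where a library had 0 reads of a gene, 3 reads served as its limit, equal to 0.185 CPM in treated CAL27 and 0.179 CPM in treated SCC15-labelled cells (CPM, TMM-scaled counts per 1e6 reads). In the DMSO libraries 3 reads equal 0.206 CPM for CAL27 and 0.214 CPM for SCC15-labelled cells, so off is a looser limit there. A gene was called on at 1 CPM or more, which corresponds to about 16.2 reads in treated CAL27 and 16.8 in treated SCC15-labelled cells. Intervals are 95% and cover counting error only, since there was 1 library a group. PCR copies were counted as reads, which the intervals do not allow for, so they may be too narrow. Log2 ratios are CAL27 over SCC15-labelled and carry a prior count of 2 reads, which pulls genes with few reads towards 0.

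The label of the SCC15 libraries was checked against marker genes. Of 21 squamous basal markers, 20 reached 1 CPM in a treated library, and all 20 were at least 2-fold higher in CAL27. Their summed level was 2572 CPM in treated CAL27 and 204 CPM in treated SCC15-labelled cells, with 2740 CPM in CAL27 and 59.2 CPM in SCC15-labelled cells under DMSO. In treated SCC15-labelled cells 7 of the 21 were at 0 reads, among them DSG3, DSC3, KRT6A and KRT16, while ITGB4 had 1512 reads there. With DMSO 13 of the 21 were at 0 in SCC15-labelled cells, TP63 included. Of 20 general epithelial markers 17 were at least 2-fold higher in CAL27, KRT18 was lower, and 5 were at 0 reads in treated SCC15-labelled cells; KRT8 had 15699 reads in treated CAL27 and 24882 in treated SCC15-labelled cells. Of 18 neuroendocrine and neural markers, 13 reached 1 CPM; 10 of these were at least 2-fold lower in CAL27 and ENO2 was higher. That list summed to 166 CPM in treated CAL27 and 1308 CPM in treated SCC15-labelled cells, while its transcription factor INSM1 was at 0 reads in both treated libraries. The SCC15 libraries thus went against their label as squamous cells in these markers, with either treatment, and every line difference given here rests on them; they are called SCC15-labelled throughout. Of 18 mesenchymal markers, 15 reached 1 CPM, 4 higher and 8 lower in CAL27, and the list summed to 825 CPM in treated CAL27 and 3142 CPM in treated SCC15-labelled cells, where VIM had 27011 reads. DCN and FAP were at 0 reads in every library. In bulk RNA, fewer cells of a type and less RNA per cell cannot be told apart. Marker lists of 10 other lineages summed to between 1.97 and 79.6 CPM in treated CAL27 and between 0.417 and 74.7 CPM in treated SCC15-labelled cells.

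Under decitabine, 3352 genes were at least 2-fold higher in CAL27 and 3239 at least 2-fold lower, which is 22.1% and 21.3% of the 15194 genes with 1 CPM in either treated library. The ratios had a median of -0.03 and quartiles of -0.83 and 0.86 on the log2 scale. At 4-fold, 1841 genes were higher and 1562 lower. With DMSO the same comparison gave 3388 higher and 3084 lower of 14813 genes. Both treatments shared 2401 higher genes, 71.6% of those under decitabine and 70.9% of those under DMSO, and 2092 lower genes, 64.6% and 67.8%. Past 2-fold in opposite directions were 36 genes: 25 higher in CAL27 under decitabine and lower under DMSO, and 11 the other way. The median size of the change in ratio between treatments was 0.50 on the log2 scale, beside a median size of 0.85 for the ratio itself.

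On in treated CAL27 and off in treated SCC15-labelled cells were 874 genes, 6.3% of the 13872 genes on in treated CAL27. They included genes of cell adhesion, keratin filaments and epithelial transcription control. Among them 588 were protein-coding (67.3%), 118 were lincRNAs and 65 were antisense RNAs, and 480 had 0 reads in treated SCC15-labelled cells. Most were weak in CAL27: the median was 42 reads, 155 reached 10 CPM and 12 reached 100 CPM. Together they took 0.999% of the reads of treated CAL27 (0.994 to 1.00, exact binomial). In the other direction, 624 genes were on in treated SCC15-labelled cells and off in treated CAL27, 4.66% of 13390. Of these 474 were protein-coding (76.0%), 69 were lincRNAs and 39 were antisense RNAs, 321 had 0 reads in treated CAL27, and the median was 57 reads in treated SCC15-labelled cells. They took 0.687% of the reads of that library (0.683 to 0.691), with 140 genes at 10 CPM or more and 10 at 100 CPM or more. Antisense and overlapping genes cannot be told from their partners, because the sources used here do not give the strand setting.

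**Figure D1:**
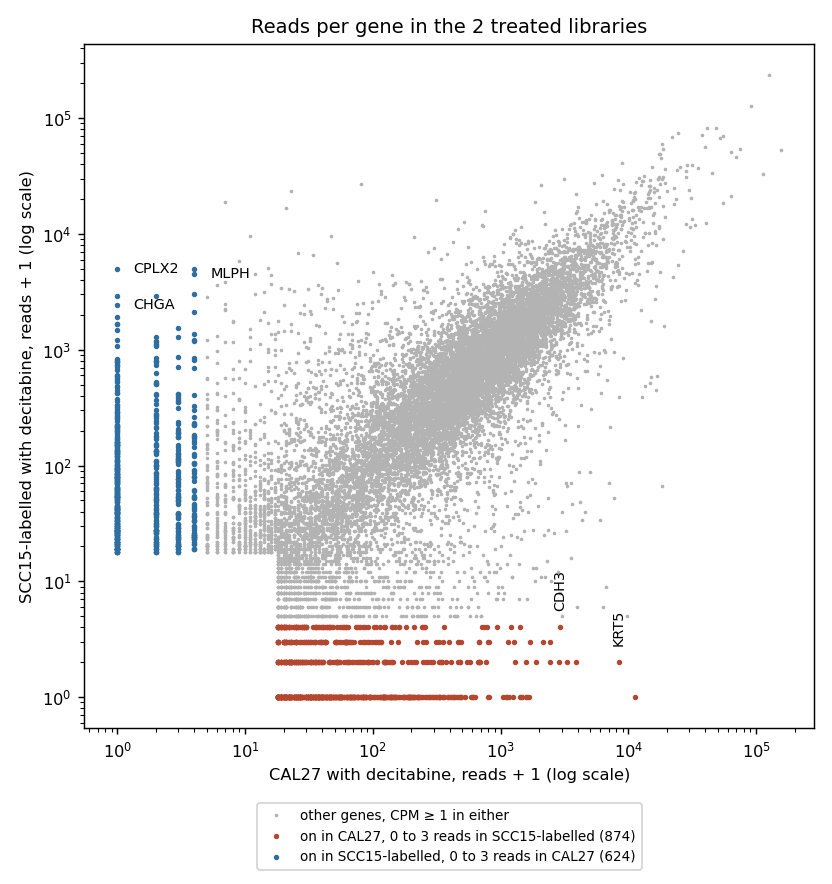
Reads per gene plus 1 in treated CAL27 (x axis, log scale) and treated SCC15-labelled cells (y axis, log scale), for the 15194 genes with 1 CPM in either. The 874 genes on in CAL27 with 0 to 3 reads in SCC15-labelled cells lie along the bottom and the 624 genes of the other direction lie along the left edge.

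The limit of 3 reads runs through a continuous range of values. Just inside it, 110 genes on in treated CAL27 had 3 reads in treated SCC15-labelled cells, led by CDH3, TRIM29 and KRT17, and just outside it 106 had 4 reads, MT1E and SH2D3A among them. Of the genes on in treated SCC15-labelled cells, 79 had 3 reads in treated CAL27, led by PTPRN, MLPH and MAGED1, and 66 had 4, led by STRA6, FGFR1 and PCLO.

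Stretches of 250 bases immediately before the RefSeq transcription start are shown for 4 genes, because decitabine acts on CpG sites and these are the highest ranked genes of their sets that had a promoter entry. KRT5 (chr12:52520395-52520644, minus strand) and CPLX2 (chr5:175796283-175796532, plus strand) were on in one line with either treatment. ITM2A (chrX:79367335-79367584, minus strand) and LCN1 (chr9:135521190-135521439, plus strand) were on in 1 treated library alone of the 4. Build is GRCh38.p14, the sequences read 5′ to 3′ on the strand of the gene, and capitals mark each CG, the letters searched.
KRT5: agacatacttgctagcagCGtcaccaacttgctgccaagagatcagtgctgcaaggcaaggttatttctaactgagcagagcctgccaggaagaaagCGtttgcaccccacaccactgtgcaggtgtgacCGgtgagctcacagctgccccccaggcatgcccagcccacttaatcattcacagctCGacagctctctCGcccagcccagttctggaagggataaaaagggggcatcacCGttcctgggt
CPLX2: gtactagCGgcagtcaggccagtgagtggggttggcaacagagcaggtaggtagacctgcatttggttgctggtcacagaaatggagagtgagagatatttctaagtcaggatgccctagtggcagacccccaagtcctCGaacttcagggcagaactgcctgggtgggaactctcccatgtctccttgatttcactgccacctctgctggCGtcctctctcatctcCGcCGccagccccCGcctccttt
ITM2A: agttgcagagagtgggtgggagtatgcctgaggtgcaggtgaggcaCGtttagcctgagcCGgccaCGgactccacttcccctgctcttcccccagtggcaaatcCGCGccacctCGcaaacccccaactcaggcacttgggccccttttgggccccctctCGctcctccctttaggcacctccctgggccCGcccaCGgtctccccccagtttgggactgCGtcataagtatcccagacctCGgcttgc
LCN1: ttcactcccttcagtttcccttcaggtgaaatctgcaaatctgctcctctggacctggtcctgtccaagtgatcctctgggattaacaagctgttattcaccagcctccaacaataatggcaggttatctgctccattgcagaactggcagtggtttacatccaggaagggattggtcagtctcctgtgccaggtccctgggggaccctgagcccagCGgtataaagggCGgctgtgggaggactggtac
The stretches held 6 (KRT5), 6 (CPLX2), 11 (ITM2A) and 2 (LCN1) CG. Over all 27305 promoters in the table, 93.6% held at least 1 CG in these 250 bases, with a median of 11 and quartiles of 3 and 23. Promoter entries were found for 425 of the 588 protein-coding genes off in SCC15-labelled cells and 318 of the 474 off in CAL27 (72.3% and 67.1%). Because this coverage is incomplete, CG content was not compared over the sets. No methylation was measured.

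Adhesion molecules and keratins headed the genes on in treated CAL27. KRT5, the keratin of basal squamous cells, had 8359 reads in treated CAL27 and 1 in treated SCC15-labelled cells, and 8054 and 0 with DMSO, a log2 ratio under decitabine of 11.41 (interval 10.60 to 18.38). It was therefore on in CAL27 and off in SCC15-labelled cells whichever treatment was given. CDH1 (E-cadherin, the adhesion molecule of epithelial junctions) had 3911 reads in treated CAL27 and 1 in treated SCC15-labelled cells, with 2727 and 4 under DMSO. CDH3 (P-cadherin, of basal epithelium) had 2927 and 3, with 2055 and 0 under DMSO.

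Other genes of that set encode varied functions. QKI, an RNA-binding protein of splicing, had 3323 reads in treated CAL27 and 1 in treated SCC15-labelled cells. RHOD, a small GTPase of endosomes, had 2449 and 2, and PROM2 (prominin 2, of membrane protrusions) had 2417 and 1. The secreted protease-inhibitor-like protein WFDC2 had 2127 reads and 2 in the treated pair, with 688 and 0 under DMSO. RNASE7, an antimicrobial ribonuclease of skin, had 1571 and 1, and ANXA8, whose reads may be split with a near-identical copy, had 1871 and 1. At 0 reads in treated SCC15-labelled cells were 4 more of the most abundant protein-coding genes: BASP1 with 1665 reads in treated CAL27, NLRP2 with 1605, PTGS1 (cyclooxygenase 1) with 1581 and HSPA13 (an HSP70 family member) with 1467. The 13 genes named were on in CAL27 with DMSO too, with between 688 and 8054 reads, and held at most 4 reads in SCC15-labelled cells with DMSO.

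Granule and exocytosis genes headed the genes on in treated SCC15-labelled cells. CPLX2, a complexin that clamps SNARE fusion, had 0 reads in treated CAL27 and 4978 in treated SCC15-labelled cells, and 0 and 2327 with DMSO. It was thus at least 1604-fold lower in CAL27 under decitabine. PTPRN (IA-2, a protein of dense-core granule membranes) had 3 and 4969, with 3 and 1698 under DMSO. Chromogranin A (CHGA) had 0 reads in treated CAL27 and 2429 in treated SCC15-labelled cells, and 0 and 1040 with DMSO. Chromogranin B (CHGB) had 0 and 1914, with 1 and 861 under DMSO, and secretogranin 3 (SCG3) had 1 and 2888, with 1 and 2531 under DMSO. All of these were off in CAL27 with either treatment. MLPH (melanophilin, which links granules to myosin) had 3 and 4490 reads in the treated pair.

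Transcription factors and receptors followed. POU3F2 (BRN2, a neural POU factor) had 2 reads in treated CAL27 and 1532 in treated SCC15-labelled cells, FOXR1 (a forkhead factor) had 0 and 1679, and ATOH8 (a bHLH factor) had 2 and 1286. ATOH8 had 0 and 351 under DMSO. NTSR1, the receptor of the peptide neurotensin, had 3 and 2127. ADAMTS9, a matrix protease, had 0 reads in treated CAL27 and 1682 in treated SCC15-labelled cells, with 0 and 370 under DMSO. MAGED1 had 3 and 3021, XKR7 had 0 and 2903, CARMIL2 had 0 and 1494, and SNTB1 (a syntrophin of the dystrophin complex) had 3 and 1360. In CAL27 with DMSO all 15 held 0 to 3 reads.

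**Figure D2:**
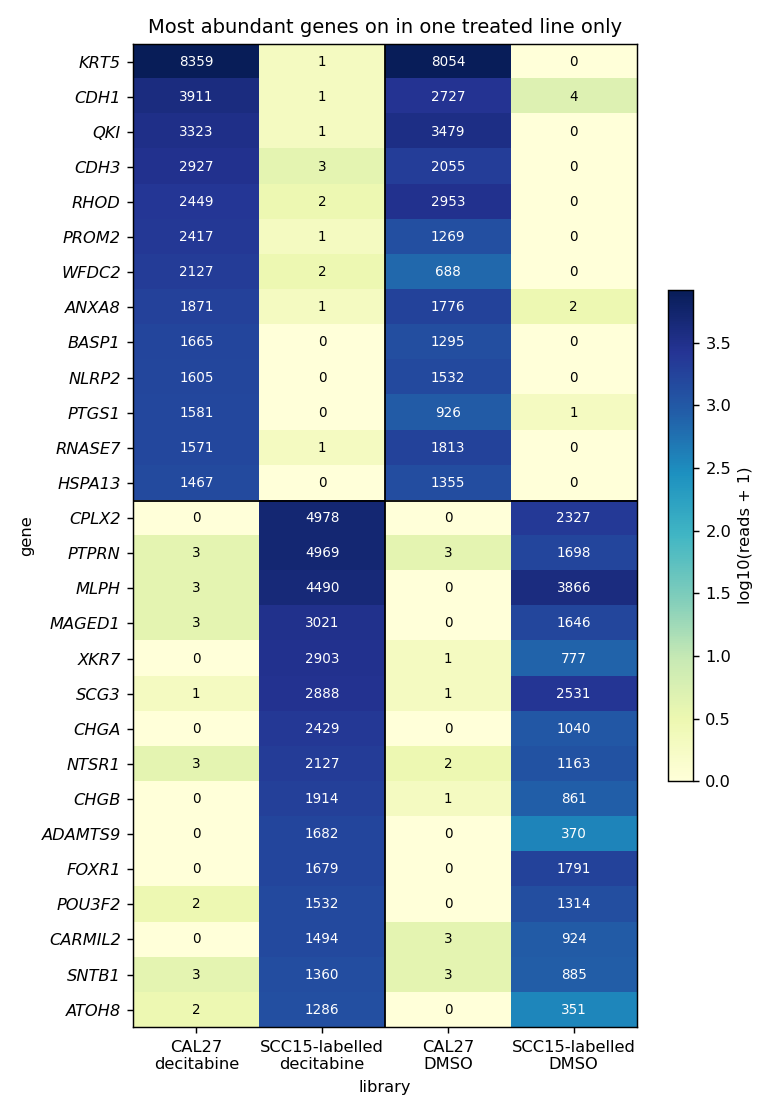
Reads of 13 of the 15 most abundant protein-coding genes on in treated CAL27 and off in treated SCC15-labelled cells (upper block) and of the 15 most abundant of the other direction (lower block), in each library (columns; colour, log10 of reads plus 1). The upper block is dark in the CAL27 columns and the lower block in the SCC15-labelled columns, with decitabine and with DMSO.

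The off and on sets were next read against the DMSO libraries. Of the 874 genes on in treated CAL27 and off in treated SCC15-labelled cells, 577 had the same layout with DMSO (66.0%). A further 157 were below 1 CPM in CAL27 with DMSO, 27 held 0 to 3 reads in both DMSO libraries, and 113 were above 3 reads in SCC15-labelled cells with DMSO. Of the 624 in the other direction, 385 had the same layout with DMSO (61.7%), 143 were below 1 CPM in SCC15-labelled cells with DMSO, 46 held 0 to 3 reads in both DMSO libraries and 50 were above 3 reads in CAL27 with DMSO.

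**Figure D3:**
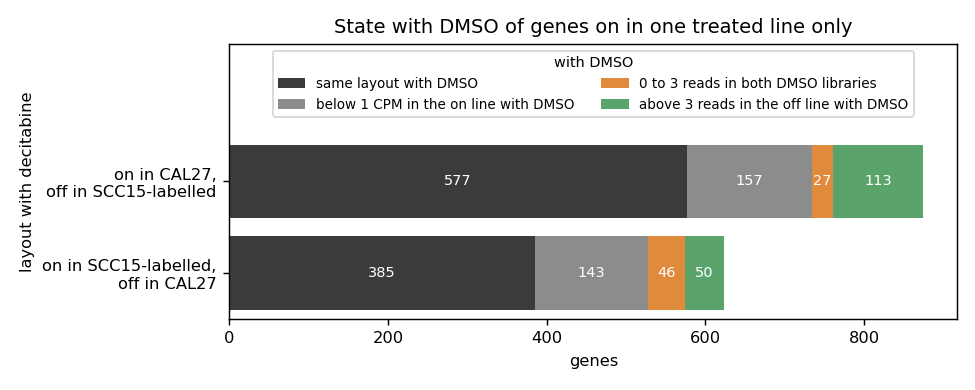
State with DMSO of the genes on in treated CAL27 and off in treated SCC15-labelled cells (top bar) and of the other direction (lower bar), as numbers of genes (x axis). The same layout with DMSO makes up the greater part of each bar, 577 of 874 and 385 of 624.

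The 27 and 46 genes off in both DMSO libraries are differences seen under the drug alone at this depth, and their reads were few. They numbered 19 and 38 with off set in each library at the CPM of 3 reads in treated CAL27. ITM2A, a membrane protein, led the 27 with 36 reads in treated CAL27 and 0 in the other 3 libraries. FRMPD2 had 26 reads in treated CAL27 and 0 elsewhere, RBBP8NL had 25 and 0, with 1 and 0 under DMSO, and RNF150 had 25 and 1, with 3 and 0 under DMSO. IRX4, a homeobox factor, had 23 reads in treated CAL27 and 0 in treated SCC15-labelled cells, and CYP24A1, the vitamin D hydroxylase, had 22 and 0. The non-coding AL079303.1 and AC090825.1 had 25 and 24 reads in treated CAL27 and 0 in treated SCC15-labelled cells.

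In the other direction the reads were more numerous. PPP1R1B (DARPP-32, a phosphatase inhibitor of dopamine signalling) had 1 read in treated CAL27 and 128 in treated SCC15-labelled cells, with 0 and 3 under DMSO. LCN1, a lipocalin of tears and saliva, had 0 and 93, and GYPC, an erythrocyte glycophorin, had 0 and 88; both had 0 reads in each DMSO library. PCK1, a gluconeogenic enzyme, had 0 and 68, with 2 and 1 under DMSO. ADAMTS4 had 2 and 61 reads, the glutamate transporter SLC1A7 had 2 and 54, TMIGD2 had 0 and 53, and COL14A1 had 3 and 51.

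Some genes that were off in one line with DMSO were above 3 reads in both treated libraries. With DMSO, 1005 genes were on in CAL27 and off in SCC15-labelled cells. Of these, 577 kept that layout under decitabine (57.4%) and 345 were above 3 reads in both treated libraries (34.3%). With off set in each library at the CPM of 3 reads in treated CAL27, the number no longer off was 277. MAGEA4, a cancer-testis antigen of the MAGE family, had 5097 reads in treated CAL27 and 305 in treated SCC15-labelled cells, with 3896 and 0 under DMSO. Its log2 ratio under decitabine was 4.10 (interval 3.94 to 4.28). The inflammatory mediators IL1B (4084 and 87, with 2082 and 1 under DMSO), TNF (879 and 55, with 498 and 1), CCL20 (612 and 154, with 107 and 1) and IL32 (539 and 69, with 422 and 1) showed the same layout. SLC7A8, an amino acid transporter, had 194 and 108 reads in the treated pair, with 100 and 3 under DMSO. WNT5A had 118 and 54, with 102 and 1, and PLEKHA6 had 477 and 50, with 412 and 1. All 8 remained higher in CAL27 under decitabine, SLC7A8 by 0.88 on the log2 scale, short of 2-fold.

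Of the 655 genes that were off in CAL27 and on in SCC15-labelled cells with DMSO, 385 kept that layout under decitabine (58.8%) and 207 were above 3 reads in both treated libraries (31.6%). With off set in each library at the CPM of 3 reads in treated CAL27, the number no longer off was 148. MYADM, a membrane protein of myeloid differentiation, had 48 reads in treated CAL27 and 2798 in treated SCC15-labelled cells, with 0 and 983 under DMSO. MAGEB2 had 26 and 2058, with 0 and 1570, and METTL7A had 28 and 1171, with 2 and 529. UCHL1, a neuronal ubiquitin hydrolase, had 36 and 43 reads in the treated pair and 1 and 23 with DMSO. RABAC1 had 27 and 33, with 3 and 25, and CPED1 had 22 and 15, with 2 and 17. For these 3 the treated lines were within 2-fold of each other. SHF had 24 and 149 reads, with 2 and 50, and the prostaglandin-degrading enzyme HPGD had 22 and 160, with 2 and 42.

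Differences of level between lines that both expressed a gene were read from the 8281 genes with 10 CPM or more in both treated libraries, of which 769 were at least 2-fold higher and 1229 at least 2-fold lower in CAL27. HLA-B, a class I antigen-presenting molecule, had 16565 reads in treated CAL27 and 444 in treated SCC15-labelled cells, a log2 ratio of 5.26 (interval 5.13 to 5.41), with 5.79 under DMSO. The chemokine CCL2 (7113 and 214 reads), the membrane protein SERINC2 (12695 and 387), the laminin chain LAMB3 (14781 and 514) and the matricellular protein CYR61 (16614 and 592) followed, with log2 ratios between 4.85 and 5.09. Complement C3 had 13362 and 489, the protease PLAU 14900 and 580, the catenin CTNNA1 8420 and 393, and the ubiquitin ligase subunit FBXO32 4027 and 219. Of these 9, CYR61, PLAU and CTNNA1 had a larger ratio under decitabine than under DMSO. The largest ratio in the other direction was that of TIMP3, a metalloproteinase inhibitor, with 311 reads in treated CAL27 and 19588 in treated SCC15-labelled cells (log2 ratio -5.92, interval -6.09 to -5.77, with -5.39 under DMSO). SPRY4, a feedback inhibitor of growth factor signalling, had 210 and 9432 reads, and GALNT10, which starts O-glycosylation, had 271 and 7010. The adhesion molecule L1CAM had 421 and 8475, the sialomucin PODXL 513 and 12648, the desaturase SCD 757 and 15849, and STMN3, a stathmin, 462 and 11040. ANXA6 (302 and 7614), GNG4 (182 and 3842) and CXXC5 (192 and 3694) completed the 10, with log2 ratios of -4.60, -4.34 and -4.20.

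Gene lists were described by counts and medians, to be read beside the 22.1% and 21.3% of all genes that were higher and lower and beside the median of -0.03. Medians under DMSO were taken over the same members, those with 1 CPM in either treated library. Members with few or no reads in both DMSO libraries thus entered the DMSO median with ratios pulled towards 0. Epithelial structure stood on the CAL27 side. Of 17 measured desmosome and hemidesmosome genes, 12 were at least 2-fold higher and DST was lower (median log2 ratio 2.14, with 3.01 under DMSO). The desmosomal cadherins DSC3 (601 reads in treated CAL27, 0 in treated SCC15-labelled cells) and DSG3 (268 and 0) led, and desmoplakin (DSP) had 4156 and 47. COL17A1, the hemidesmosomal collagen, had 3237 and 26, with 2919 and 9 under DMSO. Of 17 tight junction genes 14 were higher and CLDN11 was lower (median 2.96); MARVELD3 had 232 and 0 reads, occludin (OCLN) had 240 and 3, and claudin 4 (CLDN4) had 3243 and 70. Of 15 keratins 8 were higher and 7 of these were off in treated SCC15-labelled cells, KRT17 with 930 reads and 3 and KRT6A with 189 and 0. KRT7 (148 and 3753) and KRT18 (6413 and 15061), keratins of simple epithelium, were lower in CAL27. The median keratin ratio was 3.05, or 2.63 with genes at 0 reads placed at their bound. Reads of KRT6 copies may be split.

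Differentiation genes and their regulators showed the same side. Of 8 cornified envelope genes 6 were higher and FLG (9 and 163 reads) was lower in CAL27, with CSTA at 444 and 5. Of 18 serpins and kallikreins 13 were higher and 4 lower, and 8 were off in treated SCC15-labelled cells, KLK5 with 787 reads in treated CAL27 and 0. Of 20 squamous and epithelial regulators 16 were higher (median 4.84, or 4.57 with genes at 0 reads at their bound). EHF had 6631 reads in treated CAL27 and 8 in treated SCC15-labelled cells, with 8121 and 0 under DMSO, GRHL2 had 610 and 0 and TRIM29 had 1199 and 3. TP63, the master factor of basal squamous cells, had 2163 and 24, with 2133 and 0 under DMSO. SOX2 (5 and 128), TFAP2C (510 and 1778) and KLF4 (469 and 1581) were lower in CAL27.

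Mesenchymal and matrix genes were split. Of 20 genes of the epithelial-mesenchymal list 5 were higher and 8 lower. Vimentin (VIM) had 80 reads in treated CAL27 and 27011 in treated SCC15-labelled cells, with 41 and 37300 under DMSO, and the repressors ZEB1 (18 and 992) and ZEB2 (20 and 635) were lower in CAL27 too. N-cadherin (CDH2, 786 and 14) and TWIST1 (147 and 0) were higher in CAL27. Of 21 collagen chains 10 were higher and 9 lower: COL4A1 had 986 and 12 reads, and COL5A2 had 25 and 6850. Of 25 integrin and laminin chains 9 were higher and 10 lower, with ITGB6 at 546 and 1 and LAMA4 at 43 and 2745. Among 18 matrix metalloproteinase and inhibitor genes, 6 were higher, MMP14 with 2324 and 194 reads, and 7 lower, MMP2 with 19 and 2434. Of 11 S100 genes 3 were higher, S100A9 with 419 and 0, and 5 lower, S100A4 with 75 and 3951.

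Immune genes stood on the CAL27 side. Of 24 antigen presentation genes 23 were at least 2-fold higher and PSMB10 was within 2-fold (median 4.17, with 4.63 under DMSO). CD74, the class II invariant chain, had 6360 reads in treated CAL27 and 5 in treated SCC15-labelled cells, with 3287 and 0 under DMSO. HLA-DRA had 1126 and 0, HLA-DRB1 289 and 0, and the immunoproteasome subunit PSMB9 1796 and 12; HLA alleles differ from the reference, so their reads may be lost or split. Of 41 interferon-stimulated genes 32 were higher and none was 2-fold lower (median 2.38, the same under DMSO), with GBP1 at 1379 and 6, MX1 at 577 and 4, and OAS2 at 331 and 7. Of 28 cytokines and chemokines 16 were higher, among them IL1A (3290 and 66) and IL6 (648 and 7). The 5 lower included TGFB1 (809 and 5262) and CXCL10 (17 and 118), an interferon-induced chemokine listed here and not with the interferon-stimulated genes. The cytokine median was 1.60 under decitabine and 2.87 under DMSO. Of 20 NF-kB subunits and feedback genes 10 were higher and none lower; TNFAIP3 had 6044 and 420, and ICAM1 had 4749 and 654 with 3297 and 37 under DMSO.

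Neuroendocrine granule and exocytosis genes stood on the other side, with 17 of 23 at least 2-fold lower in CAL27 and 3 higher (median -6.30, or -6.04 with genes at 0 reads at their bound; -5.89 under DMSO). Beside those named before, VGF, a granule peptide precursor, had 22 reads in treated CAL27 and 23443 in treated SCC15-labelled cells, SCG2 had 46 and 9526, and the prohormone convertase PCSK1 had 51 and 5646. The SNARE subunit SNAP25 had 1 and 847, and STX1A had 99 and 4658. RAB3B (363 and 41), SYT13 (65 and 17) and galanin (GAL, 238 and 74) were higher in CAL27. HOX genes, which mark position along the body axis, were lower in CAL27 in 24 of 32 and at least 2-fold higher in 0 (median -1.94, with -2.11 under DMSO), led by HOXA7 (5 and 421) and HOXA9 (21 and 760). Of 11 neural and endocrine lineage factors 4 were higher, among them SOX1 (48 and 0) and FOXA1 (161 and 8), and 6 lower, among them PROX1 (4 and 217) and GATA2 (141 and 1282).

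**Figure D4:**
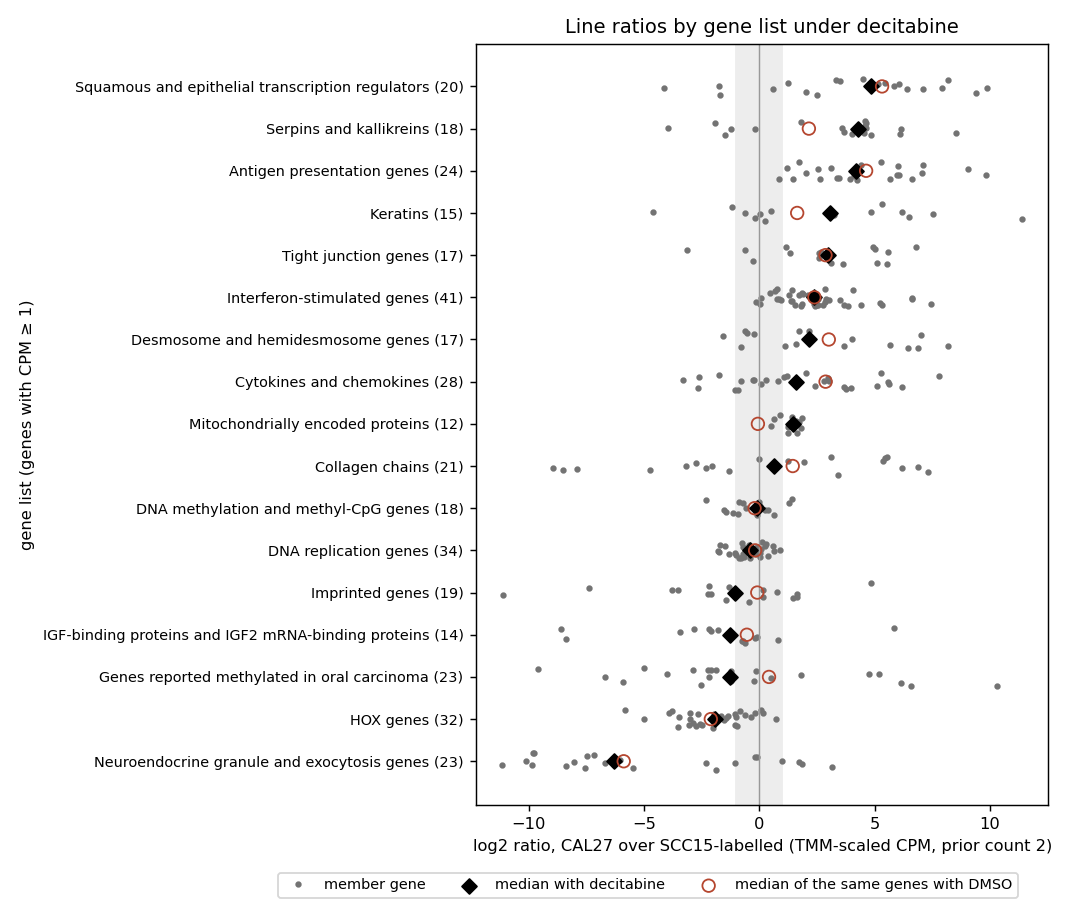
Log2 ratio of CAL27 over SCC15-labelled cells for the measured members of 17 gene lists (grey points, treated pair; diamonds, median of the treated pair; open circles, median of the same genes in the DMSO pair; shaded band, within 2-fold). Antigen presentation genes have a median of 4.17 and granule and exocytosis genes a median of -6.30, and the mitochondrially encoded list differs between treatments, 1.48 under decitabine and -0.06 under DMSO.

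Germline and imprinted genes are classic targets of promoter methylation. Of 40 cancer-testis antigens 11 reached 1 CPM in a treated library, 2 higher and 7 lower in CAL27, and 4 of the 7 were off in treated CAL27. MAGEA12 had 6 reads in treated CAL27 and 2223 in treated SCC15-labelled cells, with 0 and 1855 under DMSO, and CSAG1 had 1 and 508. MAGEA6 was higher in CAL27 (1530 and 115, with 1838 and 44 under DMSO), and CTAG2 had 0 and 29 reads with 0 in each DMSO library. Reads of MAGE and CSAG copies may be split. Of 12 germline genes 7 were higher, PIWIL2 with 35 and 0, and 3 lower, DAZL with 16 and 91 and with 0 reads in each DMSO library. Of 19 imprinted genes 4 were higher and 11 lower (median -1.05, with -0.09 under DMSO). PEG10 had 6 and 18758, with 0 and 12029 under DMSO, and its neighbour SGCE had 2 and 707. H19 had 44 reads in treated CAL27 and 205 in treated SCC15-labelled cells, with 3 and 0 under DMSO, and MEG3 had 1 and 42, with 0 in each DMSO library. Genes reported methylated in oral carcinoma were higher in 6 and lower in 14 of 23 (median -1.29, with 0.42 under DMSO); MGMT, the O6-methylguanine repair enzyme, had 0 and 223 reads, and CHFR had 197 and 0.

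Genes through which decitabine enters cells, is activated and acts were mostly within 2-fold. Of 19 uptake and metabolism genes 14 were within 2-fold, among them DCK, the kinase that activates the drug (408 reads in treated CAL27 and 665 in treated SCC15-labelled cells, log2 ratio -0.65), and SLC29A1, a nucleoside transporter (1172 and 1679). CDA, the deaminase that inactivates decitabine, had the largest ratio of the list, with 1214 reads in treated CAL27 and 10 in treated SCC15-labelled cells and 933 and 3 with DMSO (log2 ratio under decitabine 6.69, interval 6.09 to 8.04). Of 18 DNA methylation and methyl-CpG genes 12 were within 2-fold; the median of -0.13 was 0.08 with total-count scaling. DNMT1, the maintenance methyltransferase, had 3790 and 6467 reads (-0.72), DNMT3B was higher in CAL27 (291 and 122), and DNMT3A (211 and 595) and TET1 (19 and 105) were lower. Of 34 DNA replication genes none was 2-fold higher and 7 were lower, led by LIG1 (598 and 2176).

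Mitochondrially encoded transcripts took 4.28% of reads in treated CAL27 (4.27 to 4.29) and 1.52% in treated SCC15-labelled cells (1.52 to 1.53), with 7.24% and 7.60% under DMSO. Of 12 measured genes 9 were at least 2-fold higher in CAL27 under decitabine. MT-ND4 had 112045 and 32852 reads in the treated pair and 178909 and 185669 in the DMSO pair, log2 ratios of 1.82 and -0.11. The median ratio of the list was 1.48 in the treated pair and -0.06 in the DMSO pair, and that difference was not tested. Base composition moved with the ratios as well, over measured genes split by GC content into groups 1 (lowest) to 10 (highest). Under decitabine the median ratio ran from 0.18 in group 1 to -0.20 in group 9 and -0.42 in group 10. Under DMSO it ran the other way over most of the range, from -0.22 in group 1 to 0.16 in group 7 and 0.15 in group 9. In group 10 the DMSO median was -0.07. With the GC trend under decitabine removed, 3458 genes were at least 2-fold higher and 3077 lower in CAL27.

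In all but 1 of the remaining lists, some members were higher and others lower in CAL27. Higher and lower counts were 7 and 5 of 14 for the EGFR family, 4 and 5 of 16 for Notch, 8 and 6 of 17 for Wnt, and 3 and 3 of 20 for cyclin-dependent kinase inhibitors and RB genes. EGFR had 16108 reads in treated CAL27 and 2767 in treated SCC15-labelled cells. NRG1, a ligand of other receptors of the EGFR family, had 1025 and 8, and the Notch target HEY1 had 41 and 1381. WNT7B had 2330 and 27, and CDKN2A (p16 and ARF) had 894 and 5314. Of 30 hypoxia and glycolysis genes 12 were higher and 7 lower, with BNIP3 at 6004 and 33, CA9 at 298 and 0, and the glucose transporter SLC2A3 at 7 and 1783. Of 23 antioxidant genes 4 were higher and 5 lower, with ABCC2 at 14 and 1695 and NQO1 at 1766 and 8629. The exception was the metallothioneins, with 4 of 5 higher and none lower, MT1E with 9691 and 4. Counts were 7 and 5 of 16 for protocadherins (PCDHAC1 1 and 213), 4 and 2 of 7 for mucins and trefoil factors (MUC16 175 and 0, TFF3 0 and 63), 1 and 7 of 14 for IGF-binding proteins (IGFBP3 4975 and 87, IGFBP5 11 and 4498) and 4 and 9 of 27 for semaphorins, plexins and neuropilins (NRP1 331 and 4072).

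Some of the off genes were neighbours. Runs of 3 or more adjacent measured protein-coding genes, all on in one treated line and off in the other, numbered 15 with CAL27 on (56 genes, longest 5) and 11 with SCC15-labelled cells on (45 genes, longest 8). The keratin run KRT75, KRT6B, KRT6A and KRT5 spanned chr12:52424070-52520687 (GRCh38) and held 8723 reads over all its genes in treated CAL27 and 1 in treated SCC15-labelled cells. The next measured protein-coding gene, KRT8, lies further on at chr12:52897187-52949954 and had 15699 and 24882. The kallikrein run KLK5, KLK6, KLK8, KLK10 and KLK14 spanned chr19:50943303-51084245, with 934 reads and 0. The class II run from HLA-DRA to HLA-DQB1 (chr6:32439842-32668383) held 1963 and 0, and the interleukin receptor run IL1R2, IL1R1, IL1RL2, IL18R1 and SLC9A2 (chr2:101991844-102711318) held 587 and 2. On chromosome 21, HSPA13, NRIP1 and USP25 were adjacent among measured protein-coding genes. They had 1467, 812 and 1095 reads in treated CAL27 and 0 each in treated SCC15-labelled cells. Under DMSO they had 0 each in SCC15-labelled cells. That chromosome also held the highest share of genes off in SCC15-labelled cells, 19 genes or 13.4% of those on in CAL27, against 6.3% over all chromosomes.

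With SCC15-labelled cells on, 7 of the 11 runs were zinc finger genes of chromosome 19. ZFP14, ZNF566, ZNF260, ZNF529, ZNF567, ZNF850, ZNF420 and ZNF585A (chr19:36334453-37172741) held 0 reads over all genes of the span in treated CAL27 and 942 in treated SCC15-labelled cells, with 1 and 1084 under DMSO. The measured protein-coding gene before the run, ZNF146, had 1691 reads in treated CAL27. ZNF808, ZNF611, ZNF28, ZNF468, ZNF816, ZNF160, ZNF845 and ZNF525 (chr19:52527652-53392217) held 12 and 941, with 10 and 1042 under DMSO. These genes encode KRAB-type and related DNA-binding repressors, many of which silence transposable elements. Grouped by symbol after the runs were seen, 41 of 160 ZNF and ZFP genes on in treated SCC15-labelled cells were off in treated CAL27 (25.6%), 37 of them at 0 reads, and 40 of the 41 had the same layout with DMSO. The share was 4.73% (32 of 676) for other protein-coding genes of chromosome 19, 3.88% (9 of 232) for ZNF and ZFP genes elsewhere and 3.58% (392 of 10950) for the rest. In the reverse direction 5 of 122 zinc finger genes of chromosome 19 on in treated CAL27 were off in treated SCC15-labelled cells. Reads of near-identical zinc finger genes may be split between copies.

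**Figure D5:**
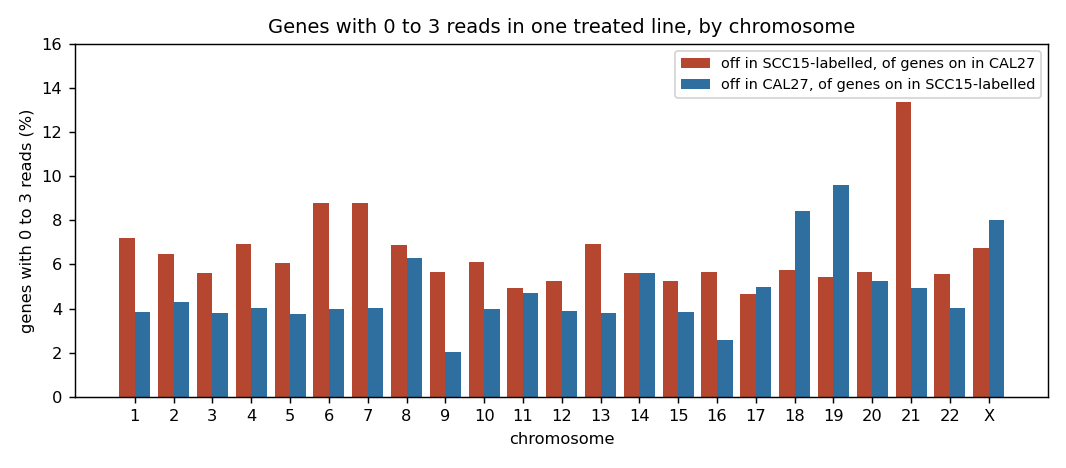
Share of genes with 0 to 3 reads by chromosome: off in treated SCC15-labelled cells among genes on in treated CAL27 (red, left bar) and off in treated CAL27 among genes on in treated SCC15-labelled cells (blue, right bar). The red share is highest on chromosome 21 (13.4%) and the blue share on chromosome 19 (9.58%) and lowest on chromosome 9 (2.01%).

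Chromosomes also differed in level for genes with 1 CPM in both lines. The median log2 ratio was -0.42 on chromosome 3, -0.40 on chromosome 4, 0.34 on chromosome 6 and 0.36 on chromosome 21 under decitabine, and -0.43, -0.66, 0.26 and 0.28 on those chromosomes under DMSO. With total-count scaling they were -0.22, -0.20, 0.55 and 0.57 under decitabine, each about 0.2 higher, so that their sizes depend on the scaling and their signs did not. Some medians of other chromosomes did change sign, that of chromosome 2 from -0.14 to 0.07. Copy number was not measured.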

How the data were processed

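RNA sequencing of 4 libraries (CAL27 and SCC15-labelled cells with decitabine or DMSO, 1 library each) was used. Whole-number read counts per gene were deposited by the authors, with FPKM that the authors derived from them; HISAT2, HTSeq 0.13.5 and GRCh38 are named in the submitters' processing notes. The sources used here give neither annotation release nor strand setting, and nothing says whether libraries came from separate cultures.

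From the counts, TMM factors (edgeR 4.0.16, R 4.3.3) were computed over all 4 libraries from 15427 genes passing filterByExpr by treatment (minimum count 10, minimum total 15). TMM moved log2 line ratios by -0.21 relative to total-count scaling. Log2 ratios used a prior count of 2, and a gene counted as higher or lower at a log2 ratio of 1 or more in size with 1 CPM in either library. Intervals are exact conditional binomial for ratios (bounds of a ratio with no prior count) and exact binomial for shares, from scipy 1.17.1. With 0 residual degrees of freedom no test was run and no p-value is given. The fold calls, off and on calls and ratio intervals alone were checked on simulated counts with known scaling and counting error only. Simulated off genes were given no reads, so their recovery was fixed in advance. TMM, the states with DMSO, the lists and the runs were not checked in this way. FPKM served as an alternative alone. Names and coordinates came from GENCODE 29; promoters came from RefSeq by symbol.

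Genes named were, in each direction, the 15 most abundant protein-coding genes off in one line, the 8 with most reads that were off in both DMSO libraries, the 8 with most reads gained that were no longer off, the 10 with the largest ratio at 10 CPM in both, up to 4 per list, and the 5 with the largest change between treatments among opposite ratios; some of these genes are not reported here, and other named genes were chosen after their values were seen. Members, thresholds and all 38 gene lists were chosen with earlier results of these data known. Alternatives were total-count, DESeq2 1.42.0 and pair-wise scaling, other priors, filters, thresholds and off limits, a GC trend, and omission of mitochondrial genes.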

Additional observations from a re-analysis of the deposited data

Results flagged for a closer look

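Single genes were past 2-fold in opposite directions in the treated and the DMSO pair, and the 5 with the largest change in each direction are given here; none of these differences was tested, and most rest on few reads. HOTAIRM1, an antisense RNA of the HOXA cluster, had 47 reads in treated CAL27 and 8 in treated SCC15-labelled cells, with 13 and 49 under DMSO, and its log2 ratio was 2.32 under decitabine and -1.83 under DMSO. The rhomboid protease gene RHBDL1 (33 and 4 reads, with 4 and 15) had 2.55 and -1.57. NPIPA1, one of a near-identical family (74 and 14, with 22 and 70), had 2.28 and -1.64. The lincRNAs AC132872.1 (48 and 10, with 16 and 49) and AP001528.1 (18 and 3, with 4 and 15) had ratios under decitabine of 2.09 and 2.01. In the other direction, the granulocyte growth factor CSF3 had 9 reads in treated CAL27 and 112 in treated SCC15-labelled cells, with 18 and 7 under DMSO, log2 ratios of -3.31 and 1.12. The ion channel gene TRPV3 (16 and 37, with 29 and 1) had -1.06 under decitabine and 3.40 under DMSO. SHROOM2 (24 and 97, with 27 and 7) had -1.88 under decitabine, ASB2 (42 and 93, with 42 and 6) had -1.06, and the lincRNA AC012065.3 (6 and 29, with 23 and 7) had -1.89.

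Medians of 4 gene lists had opposite signs in the 2 pairs, also untested. Both medians of a list used members with 1 CPM in either treated library, whatever their level with DMSO. Members on under the drug alone thus entered the DMSO median with ratios pulled towards 0, so the 2 medians are not on an equal footing. Mitochondrially encoded proteins had a median log2 ratio of 1.48 under decitabine and -0.06 under DMSO. Genes reported methylated in oral carcinoma had -1.29 under decitabine and 0.42 under DMSO. Nearer to 0 were integrin and laminin chains, with -0.52 under decitabine and 0.06 under DMSO, and antioxidant genes of the NRF2 pathway, with 0.18 and -0.15.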

How the results depend on the processing

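No paired analysis was possible because each group had 1 library and no test was run; for the same reason no replicate could be left out. Counts moved mainly with the limits that define them. Genes at least 2-fold lower in CAL27 numbered 1673 on log2 of FPKM plus 1, and those higher numbered 5683 with no CPM filter and 2104 with a filter of 5 CPM. At a log2 ratio of 2 they were 1841 higher and 1562 lower. With off at 0 reads, genes on in CAL27 and off in SCC15-labelled cells numbered 480 (301 with the same layout under DMSO, 5 off in both DMSO libraries), and those of the other direction 321 (190 and 8). With off at 0 to 10 reads these were 1464 (977 and 227) and 1017 (625 and 233). With off in each library at the CPM of 3 reads in treated CAL27 they were 874 (547 and 19) and 624 (371 and 38). Genes no longer off in SCC15-labelled cells and in CAL27 were then 277 and 148, against 345 and 207 at 3 reads. With on at 10 reads, 1363 genes were on in CAL27 and off in SCC15-labelled cells, and those off in both DMSO libraries were 129 with CAL27 on and 127 with SCC15-labelled cells on. With on at 5 CPM the sets were 271 (206 and 0) and 246 (164 and 3), and 142 and 72 genes were no longer off in SCC15-labelled cells and in CAL27. Counts of genes off in both DMSO libraries thus moved with both the off limit and the on limit. Total-count scaling gave 4134 higher and 2693 lower, and DESeq2 size factors 3367 and 3222. Ratios of 344 named genes were compared with their counting intervals, widened where needed to hold the main ratio. Outside were 310 with FPKM plus 1, 91 with a prior count of 5, 69 with total-count scaling and 4 with pair-wise scaling. All 344 stayed inside with DESeq2 size factors and with a prior count of 0.5. List medians changed sign for DNA methylation genes (0.08) and protocadherins (0.11) with total-count scaling, likewise with FPKM plus 1 (0.07 and 0.03), and for Notch genes with a GC trend removed (0.04). Chromosome medians moved for 22 of 23 chromosomes with total-count scaling and for 17 with FPKM plus 1. Under both, the medians of chromosomes 2, 5, 7, 9, 10, 13, 15, 17, 18 and X turned from negative to positive. The other 35 list medians kept their sign in every alternative run. TMM moved log2 line ratios by -0.21 relative to total-count scaling, and the shifts under that scaling follow from this offset. The cause of the other shifts was not tested.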
